A study of Macaca mulatta with 6 samples.

Results

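Endothelial cells line the vessels of the brain, and mural cells, which are the pericytes of capillaries and the smooth muscle cells of arterioles and arteries, wrap around them. The genes described here are 50 markers and signalling genes of these cells, chosen by symbol: 25 of endothelium, 21 of mural cells and 4 ligands that act on them. Of these, 41 were matched to a rhesus Ensembl identifier in the expression table and 40 had a mean of 10 or more normalized counts over the 6 libraries, out of 16595 genes at that level and 23191 in all. TBX2, a transcription factor, was the 1 member below that level, with 9 reads in saline library 2 and none in the others, where a count of 0 leaves room for up to 3 reads. The other 9 members, CLDN5, SOX17, SOX18, ICAM2, CLEC14A, TM4SF1, MYL9, HIGD1B and KCNJ8, were not analysed here.

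The libraries were made from polyadenylated RNA of cells labelled as purified adult neurons of the cortex, from male rhesus monkeys (Macaca mulatta) of 3 to 4 years. There were 3 libraries of the morphine group and 3 of the saline group. Animals of the morphine group received the opioid subcutaneously, 3 injections daily over 90 days, with doses of 3 mg/kg in the beginning and 15 mg/kg from day 29 onwards, and animals of the saline group received 0.9% saline on the same schedule. The treatment protocol names 2 animals per group, so at least 2 of the 3 libraries of a group come from 1 animal, treatment and animal cannot be told apart, and the p-values measure only the spread between these libraries.

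In the brain, endothelial cells are sealed to one another by tight and adherens junctions and carry few vesicles, which gives the blood-brain barrier. Angiopoietin 1 from the surrounding cells activates the receptor TEK on endothelium and stabilises vessels, angiopoietin 2 can oppose it, and vascular endothelial growth factor (VEGFA) drives growth and leakiness through its receptor KDR. Endothelial PDGFB recruits pericytes through PDGFRB. Smooth muscle cells are known for a contractile set of actin, myosin and actin-binding proteins, which pericytes of capillaries hold at low levels.

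Library depth lay between 31238653 and 36345095 recovered reads. Markers of several brain cell types were present in every library although the label names neurons: all 14 neuron markers were tested, with summed levels of 230344 to 234652 normalized counts in morphine libraries, against 286646 to 297354 in saline libraries, and no endothelial or mural member with a row was at 0 in all libraries. A normalized count is the number of reads divided by a size factor of the library. RNA from vessel cells in these bulk samples cannot be assigned to cells, so fewer cells of a type and less RNA per cell cannot be told apart.

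More endothelial genes fell than rose with morphine, and 4 contractile genes of smooth muscle rose. Of these 4, ACTA2 and MYH11 passed in all 6 fits without 1 library, TAGLN in 2 and CNN1 in 1. Of 16 other contractile genes tested 3 rose and 3 fell, and DES did not pass. The general markers of both compartments differed in their calls: PECAM1 fell, whereas VWF, CDH5, PDGFRB and NOTCH3 did not pass the test. The threshold for a change was a limma adjusted p under 0.05 throughout. It was passed by 17 of the 40 members (42.5%), beside 27.9% of all genes tested. Of these members 7 rose and 10 fell, while 12.9% of all genes rose and 15.0% fell. On the recovered reads, edgeR called 21 members and 34.0% of all genes, and DESeq2 called 20 members and 36.8% of all genes. In the authors' deposited table the threshold is passed by 19 members and 34.1% of all genes. Among the 19 endothelial members tested 2 rose and 7 fell, with a median log2 fold change of -0.15. Among the 17 mural members 5 rose and 1 fell, with a median of -0.01, and among the 4 ligands 0 rose and 2 fell, with a median of -0.29. The median over all genes tested was 0.01. The values of the morphine and saline libraries did not overlap for 25 of the 40 members and for 48.7% of all genes. Without 1 library at a time 5 or 6 endothelial members fell, and 1 rose without morphine library 1 or 2 or saline library 1, 2 or 3. Mural rises numbered 3 without morphine library 1, morphine library 3 or saline library 3, and 2 without morphine library 2 or saline library 1 or 2.

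**Figure D1:**
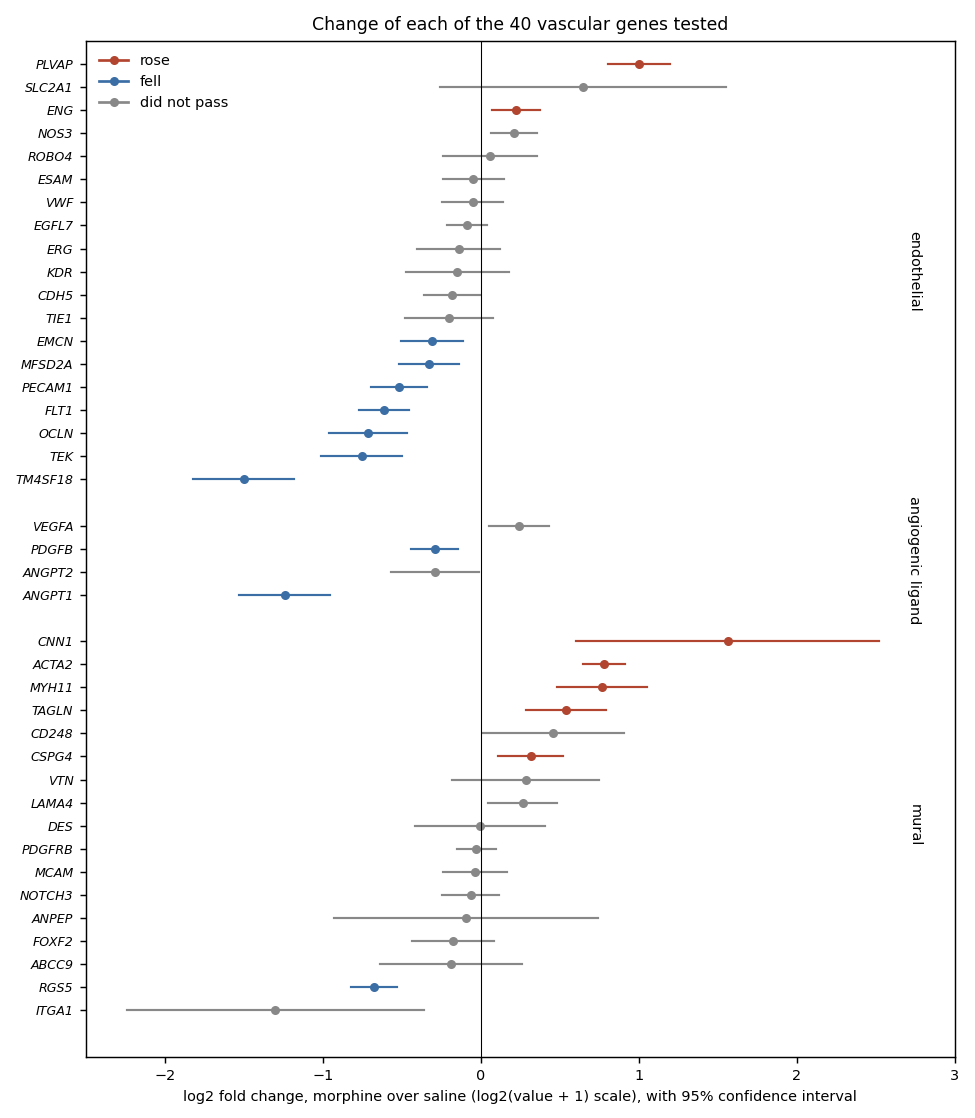
Log2 fold change of morphine over saline (x axis, log2(value + 1) scale) with its 95% confidence interval for the 40 members tested, grouped as endothelial, ligand and mural genes and sorted by value; red members rose, blue members fell and grey members did not pass. The endothelial members run from -1.501 in TM4SF18 to 1.00 in PLVAP, and the contractile genes CNN1, ACTA2, MYH11 and TAGLN stand at the upper end of the mural members.

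Of 4 genes of endothelial junctions, 2 fell and 2 did not pass. PECAM1 (ENSMMUG00000011809), an adhesion molecule of endothelial junctions that some blood cells also carry, had 1481, 1312 and 1309 normalized counts in morphine libraries 1, 2 and 3, against 1903, 1982 and 1990.04 in saline libraries 1, 2 and 3. Every morphine library lay below every saline library, and PECAM1 fell by 0.52 ± 0.0697 (SE) on the log2 scale (limma adjusted p = 0.00775). OCLN (ENSMMUG00000006216), a protein of tight junctions, had 613, 608 and 511 normalized counts in morphine libraries, against 887, 941 and 1008 in saline libraries. The groups were again apart, with a fall of 0.71 ± 0.098 (limma adjusted p = 0.00811). CDH5, the cadherin of endothelial adherens junctions, had 772, 727 and 668 normalized counts in morphine libraries, against 805, 829.9 and 822 in saline libraries. The groups of CDH5 did not overlap either, but the difference was small, with a log2 fold change of -0.18 (95% confidence interval -0.36 to -0.01), and did not pass (limma adjusted p = 0.108). ESAM, an adhesion molecule of tight junctions, had 1867, 1955 and 1918 normalized counts in morphine libraries, against 2179.7, 1902 and 1869 in saline libraries, and the groups overlapped (log2 fold change -0.05, interval -0.24 to 0.15).

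**Figure D2:**
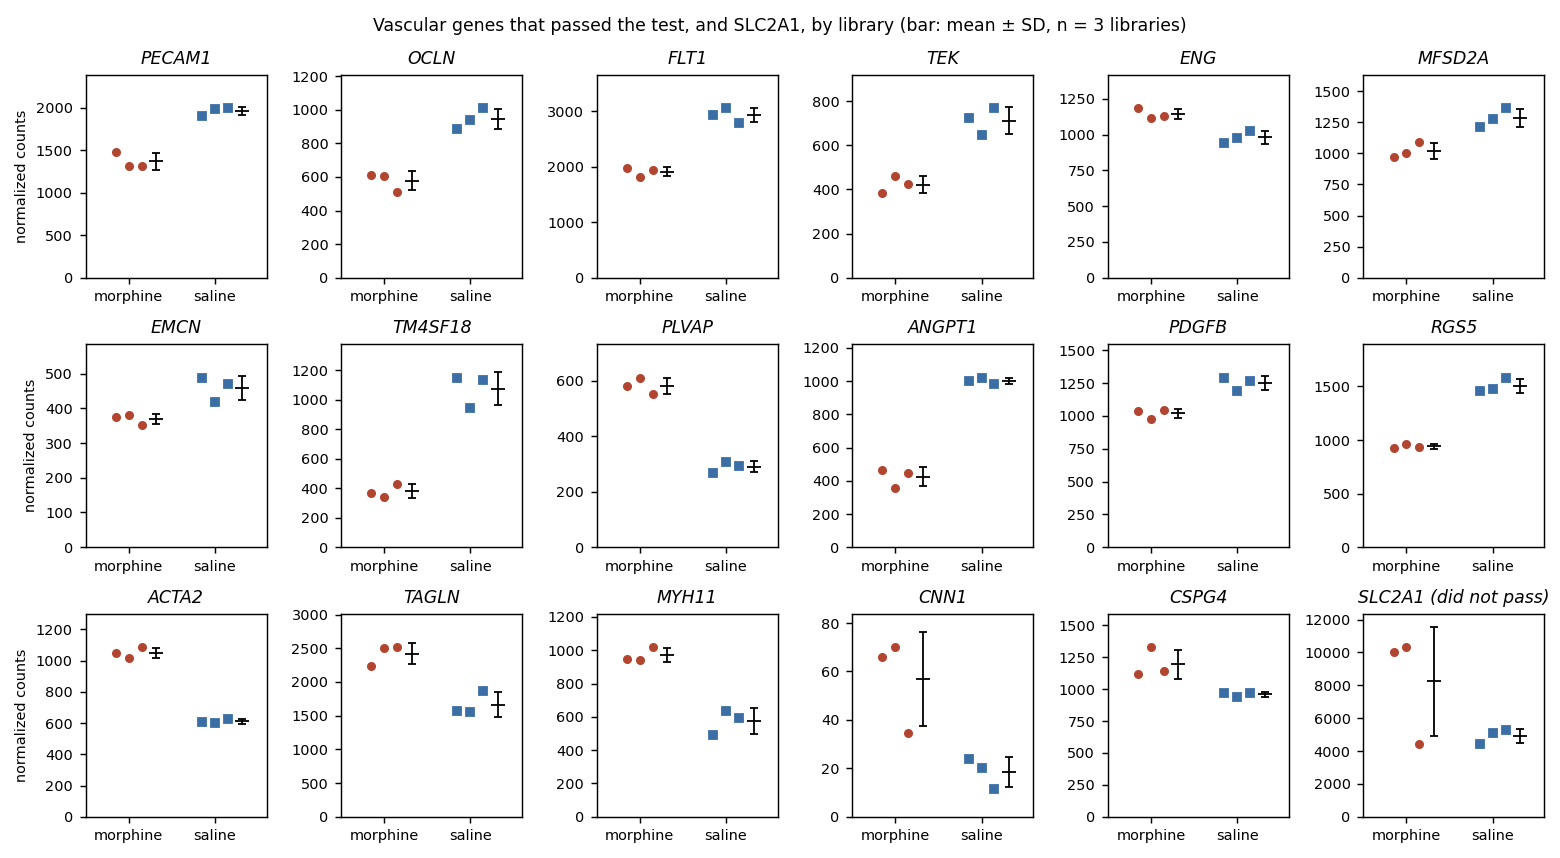
Normalized counts (y axis, from 0) in the 3 morphine libraries (red circles) and the 3 saline libraries (blue squares) for the 17 members that passed the test and for SLC2A1, which did not; the bar beside each group is its mean ± SD (n = 3 libraries). The groups are apart in every panel except SLC2A1, where the morphine libraries lie at 10010.1, 10307 and 4424 and the third of them is at the lower edge of the saline libraries.

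The largest changes of endothelial members, in both directions, were in 2 membrane proteins. TM4SF18 (ENSMMUG00000047621), of the TM4SF family of membrane proteins, had 369.8, 337 and 430.5 normalized counts in morphine libraries, against 1147, 944 and 1129 in saline libraries. The highest morphine library had less than the lowest saline library by a wide margin, and the fall was 1.501 ± 0.127 on the log2 scale (limma adjusted p = 0.00315). PLVAP (ENSMMUG00000002413), which forms the diaphragms of fenestrae and vesicles and is known to be low in mature barrier endothelium, had 582, 610.1 and 552 normalized counts in morphine libraries, against 268, 309 and 294 in saline libraries. PLVAP went the other way from the 7 endothelial members that fell: it rose by 1.00 ± 0.0763 (limma adjusted p = 0.00266), with all morphine libraries above all saline libraries. EMCN, a mucin of capillary and venous endothelium, averaged 369.7 ± 15.1 normalized counts in morphine libraries, against 459 ± 35.5 in saline libraries (SD, n = 3 each) and fell by 0.31 (limma adjusted p = 0.0394). That call was lost in 5 of the 6 fits without 1 library (limma adjusted p between 0.0341 and 0.11), all but the one without saline library 2, and in DESeq2 (adjusted p = 0.0701). VWF, the clotting protein that endothelium stores and releases, averaged 1039.9 ± 44.6 normalized counts in morphine libraries, against 1079.8 ± 77.7 in saline libraries (SD, n = 3 each). Its groups overlapped, with a log2 fold change of -0.05 and a 95% interval of -0.24 to 0.14.

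In the VEGF and angiopoietin receptor pairs 1 gene fell and the other did not pass, and the difference between the genes of a pair was not tested. FLT1 (ENSMMUG00000021538), a VEGF receptor that largely traps its ligand, had 1978, 1820.2 and 1935 normalized counts in morphine libraries, against 2936, 3049 and 2794 in saline libraries. KDR, the main signalling receptor for VEGFA, had 451, 387 and 429 normalized counts in morphine libraries, against 438, 421 and 554 in saline libraries. FLT1 fell by 0.61 ± 0.0623 (limma adjusted p = 0.00427) with the groups apart, whereas the groups of KDR overlapped and KDR did not pass (log2 fold change -0.15, interval -0.48 to 0.18). TEK (ENSMMUG00000006080), the receptor of the angiopoietins, had 382, 458 and 423 normalized counts in morphine libraries, against 721, 644 and 767 in saline libraries. TIE1, its partner that binds no angiopoietin by itself, had 579, 502 and 480.4 normalized counts in morphine libraries, against 601, 659 and 539.96 in saline libraries. TEK fell by 0.75 ± 0.102 (limma adjusted p = 0.00785), while TIE1 had overlapping groups and did not pass (log2 fold change -0.20, interval -0.48 to 0.07). The falls of PECAM1, OCLN, TM4SF18, FLT1 and TEK and the rise of PLVAP passed in all 6 fits without 1 library. ENG, a co-receptor of the TGF-beta family, averaged 1144 ± 35.1 normalized counts in morphine libraries, against 981 ± 44.9 in saline libraries (SD, n = 3 each) and rose by 0.22 (limma adjusted p = 0.0448). The call of ENG was lost in each of the 6 fits without 1 library (limma adjusted p between 0.0583 and 0.122) and with TMM scaling (adjusted p = 0.0507), and in the authors' deposited table its adjusted p is 0.0591.

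Of the 2 transporters of the barrier, 1 fell and the other depended on 1 library. MFSD2A (ENSMMUG00000011264), which carries lipids with docosahexaenoic acid into the brain and restrains vesicle traffic, had 970.3, 1002 and 1093 normalized counts in morphine libraries, against 1214, 1274 and 1361 in saline libraries. It fell by 0.33 ± 0.0752 (limma adjusted p = 0.0304), but passed in only 1 of the 6 fits without 1 library, the one without morphine library 3 (limma adjusted p between 0.045 and 0.093). SLC2A1 (ENSMMUG00000000373), the glucose carrier of barrier endothelium that astrocytes also make, had 10010.1, 10307 and 4424 normalized counts in morphine libraries, against 4446, 5089.9 and 5273 in saline libraries. Morphine libraries 1 and 2 were thus high and morphine library 3 was below all saline libraries. SLC2A1 did not pass with all libraries (log2 fold change 0.65, interval -0.26 to 1.55, limma adjusted p = 0.235), and without morphine library 3 its log2 fold change was 1.04 (adjusted p = 0.017). The summed level of the 19 endothelial members, which includes SLC2A1, was 31262, 30799 and 25024 normalized counts in morphine libraries 1, 2 and 3, against 28452, 28820.1 and 29371 in saline libraries. Without SLC2A1, a choice made after the values had been seen, the other 18 summed to 21252, 20493 and 20600.3 normalized counts in morphine libraries, against 24006, 23730.2 and 24098 in saline libraries. Each morphine library was then below each saline library.

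The remaining endothelial members did not pass. NOS3, the nitric oxide synthase of endothelium, had 2273, 2243 and 2359.8 normalized counts in morphine libraries, against 2038, 1883 and 2035 in saline libraries, apart but close, with a log2 fold change of 0.21 ± 0.0577 (limma adjusted p = 0.0505; edgeR quasi-likelihood adjusted p = 0.0196). The log2 fold change was -0.14 (interval -0.40 to 0.12) in ERG, an ETS transcription factor that maintains endothelial identity, and 0.06 (interval -0.24 to 0.35) in ROBO4, an endothelial receptor of the roundabout family. EGFL7, a protein that endothelium secretes, had a value of -0.09 (interval -0.21 to 0.04). For these 3 genes the intervals leave no room for a change as large as that of TM4SF18 or PLVAP.

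Of the 4 ligands that act on vessel cells, ANGPT1 and PDGFB fell. ANGPT1 (ENSMMUG00000017745), the activating ligand of TEK, which mural cells and other brain cells release, had 467, 359 and 449.7 normalized counts in morphine libraries, against 1003, 1019 and 981 in saline libraries. The saline libraries lay within a narrow range and all morphine libraries lay far below it, a fall of 1.24 ± 0.113 on the log2 scale (limma adjusted p = 0.00356), and this call passed in all 6 fits without 1 library. ANGPT2, the angiopoietin that endothelium stores, had 311, 310.5 and 272 normalized counts in morphine libraries, against 319, 392 and 388 in saline libraries. The groups of ANGPT2 did not overlap, but the gene did not pass (log2 fold change -0.29, interval -0.57 to -0.01, limma adjusted p = 0.107). PDGFB, the endothelial growth factor for pericytes, averaged 1020.1 ± 36.2 normalized counts in morphine libraries, against 1250.1 ± 52.3 in saline libraries (SD, n = 3 each) and fell by 0.29 (limma adjusted p = 0.0219). PDGFB passed in 1 of the 6 fits without 1 library, the one without saline library 2 (limma adjusted p between 0.0377 and 0.0703). VEGFA, which glia and neurons also make, had 3738, 3379 and 3569.5 normalized counts in morphine libraries, against 2883, 3261 and 2917 in saline libraries. VEGFA had a higher mean in morphine than in saline libraries, unlike the other 3 ligands, with a log2 fold change of 0.24 that did not pass in limma (adjusted p = 0.0701) and passed in edgeR (adjusted p = 0.021). Astrocytes, another source of angiopoietin and VEGF, had markers that moved as well: 5 of 11 fell and 2 rose (63.6% called, beside 27.9% of all genes tested). Their summed levels were 294501 to 344412 normalized counts in morphine libraries, against 347578 to 402811 in saline libraries, with no marker at 0 in all libraries. The outer ends of these ranges, in morphine library 3 and saline library 1, rest largely on the marker NDRG2. NDRG2 had 88706, 90879 and 41925 normalized counts in morphine libraries, against 102283, 43604 and 44270.2 in saline libraries. The part of the astrocyte markers in the ligand results was not tested.

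The contractile members ACTA2, MYH11, TAGLN and CNN1 rose. ACTA2 (ENSMMUG00000009341), the smooth muscle actin, had 1049, 1018 and 1084 normalized counts in morphine libraries, against 609, 598 and 627 in saline libraries. Both groups were tight and far apart, and ACTA2 rose by 0.78 ± 0.0521 on the log2 scale (limma adjusted p = 0.00212). MYH11 (ENSMMUG00000010367), the myosin heavy chain of smooth muscle, had 950.1, 944 and 1017 normalized counts in morphine libraries, against 488, 636 and 596 in saline libraries, and rose by 0.77 ± 0.113 (limma adjusted p = 0.00965). TAGLN (ENSMMUG00000002058), the actin-binding protein transgelin, had 2236, 2502 and 2513 normalized counts in morphine libraries, against 1565, 1559 and 1872 in saline libraries. Saline library 3 was the highest of its group, below every morphine library, and TAGLN rose by 0.54 ± 0.0997 (limma adjusted p = 0.0172). CNN1 (ENSMMUG00000001473), calponin of smooth muscle, had 65.9, 69.9 and 34.6 normalized counts in morphine libraries, against 23.7, 20.05 and 11.6 in saline libraries. Morphine library 3 lay nearer to the saline libraries than morphine libraries 1 and 2 did, and the rise of 1.56 ± 0.379 (limma adjusted p = 0.0354) rests on few reads. ACTA2 and MYH11 passed in all 6 fits without 1 library. TAGLN passed in 2 of them, those without morphine library 1 or saline library 3 (limma adjusted p between 0.0205 and 0.0609), and CNN1 in 1, that without morphine library 3 (limma adjusted p between 0.0335 and 0.101).

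DES, the intermediate filament desmin that muscle and mural cells hold, did not pass. It had 207, 136 and 161 normalized counts in morphine libraries, against 158, 171 and 171 in saline libraries, and the groups overlapped (log2 fold change -0.01, interval -0.42 to 0.40). In the same libraries 6 of 13 markers of fibroblasts of the meninges and vessel walls rose and 0 fell (46.2% called, beside 27.9% of all genes). Their summed levels were 12237 to 12407 normalized counts in morphine libraries, against 9276 to 9544 in saline libraries, with no marker at 0 in all libraries. A large part of these sums came from PDGFRA, which is also among the oligodendrocyte precursor markers and did not pass. It had 5127, 4880 and 5119 normalized counts in morphine libraries, against 4426, 4628 and 4513 in saline libraries. COL1A1, the main chain of fibrillar collagen, had 213, 209.7 and 182 normalized counts in morphine libraries, against 19.7, 14 and 15.8 in saline libraries, and rose with the groups far apart. COL1A1 had the largest change of these markers, 7 of the 13 did not pass, and FBLN1, a matrix protein gene, was the 1 marker with a negative log2 fold change (-0.14). The part of the fibroblast markers in the contractile result was not tested.

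Among genes known from pericytes, RGS5 fell and the others named here did not pass. RGS5 (ENSMMUG00000005186), a regulator of G protein signalling that is abundant in brain pericytes, had 921, 967 and 932 normalized counts in morphine libraries, against 1453, 1479 and 1579.8 in saline libraries. RGS5 fell by 0.68 ± 0.0569 (limma adjusted p = 0.00315) with the groups apart, and passed in all 6 fits without 1 library. PDGFRB (ENSMMUG00000011557), the receptor that marks mural cells as a whole, had 2958, 2906 and 2956 normalized counts in morphine libraries, against 3088, 2913 and 3002 in saline libraries. Its log2 fold change was -0.03 with a 95% interval of -0.15 to 0.09, among the narrowest intervals of the members. NOTCH3, the Notch receptor of mural cells, had 1506, 1323 and 1507 normalized counts in morphine libraries, against 1491, 1554 and 1485 in saline libraries, and its interval was -0.25 to 0.12. ABCC9, a subunit of the ATP-sensitive potassium channel of pericytes, and FOXF2, a transcription factor of brain pericytes, had log2 fold changes of -0.19 and -0.18, and neither passed. ANPEP, an aminopeptidase on brain pericytes, had 43.6, 101 and 80.7 normalized counts in morphine libraries, against 64.1, 79.2 and 85.4 in saline libraries. Morphine library 1 was the lowest of the 6 and morphine library 2 the highest, so the interval of ANPEP was wide (-0.93 to 0.74).

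Matrix and surface proteins of mural cells gave 1 further call. CSPG4, a proteoglycan of pericytes and of oligodendrocyte precursors, had 1118, 1326 and 1143 normalized counts in morphine libraries, against 971, 935 and 969 in saline libraries and rose by 0.32 (limma adjusted p = 0.0422). CSPG4 passed in 0 of the 6 fits without 1 library (limma adjusted p between 0.0634 and 0.112). Of 6 other oligodendrocyte precursor markers, among them PDGFRA of the fibroblast list, 3 rose and 0 fell (beside 27.9% of all genes called). Their summed levels were 23098 to 23851 normalized counts in morphine libraries, against 19028 to 19386 in saline libraries, with no marker at 0 in all libraries. The part of these markers in the value of CSPG4 was not tested. ITGA1, an integrin chain for collagen and laminin, had 30.8, 51.7 and 20.2 normalized counts in morphine libraries, against 95.7, 86.2 and 62.2 in saline libraries. Its groups were apart at a low level, with a log2 fold change of -1.30 ± 0.371 that did not pass in limma (adjusted p = 0.0542) and passed in edgeR (adjusted p = 0.0362) and in limma without morphine library 2 (adjusted p = 0.0339). LAMA4, a laminin chain of vessel basement membranes, had a log2 fold change of 0.26 (limma adjusted p = 0.0779; edgeR adjusted p = 0.0349). CD248, the surface glycoprotein endosialin, VTN, the adhesive protein vitronectin, and MCAM, an adhesion molecule of vessel cells, had log2 fold changes of 0.46, 0.28 and -0.04, and none of these 3 passed.

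Ratios of 2 members within a library do not depend on how the libraries are scaled against each other, and they show the unequal changes directly. These pairs were chosen after the values had been seen, so the ratios are given with no test. The ratio of ACTA2 to RGS5 was 1.14, 1.05 and 1.16 in morphine libraries and 0.419, 0.405 and 0.397 in saline libraries, and the mean ratio in morphine was 2.75 times that in saline. The ratio of ACTA2 to PDGFRB averaged 0.357 ± 0.00854 in morphine libraries, against 0.204 ± 0.00609 in saline libraries (SD, n = 3 each), and that of RGS5 to PDGFRB 0.32 ± 0.0113 in morphine libraries, against 0.502 ± 0.0283 in saline libraries. Against the same mural receptor ACTA2 was thus higher and RGS5 lower in each morphine library than in any saline library. The ratio of MYH11 to PDGFRB averaged 0.33 ± 0.0122 in morphine libraries, against 0.192 ± 0.0307 in saline libraries, and its groups did not overlap. For other pericyte genes no ratio to PDGFRB was computed. ABCC9, FOXF2 and ANPEP had log2 fold changes of -0.19, -0.18 and -0.09 that did not pass. CSPG4 rose, but passed in 0 of the 6 fits without 1 library. Whether these genes differ from RGS5 was not tested. Among the endothelial and ligand genes, the ratio of ANGPT1 to ANGPT2 was 1.5, 1.16 and 1.65 in morphine libraries and 3.15, 2.6 and 2.53 in saline libraries. The ratio of PLVAP to CDH5 was 0.755, 0.839 and 0.827 in morphine libraries and 0.333, 0.372 and 0.358 in saline libraries. These groups were far apart, while those of TEK to TIE1, with 0.659, 0.913 and 0.88 in morphine libraries, against 1.2, 0.979 and 1.42 in saline libraries, nearly touched. The ratio of FLT1 to KDR was 4.39, 4.71 and 4.51 in morphine libraries and 6.7, 7.24 and 5.05 in saline libraries, where saline library 3 lay close to the morphine libraries. Each number is a ratio of normalized counts not corrected for gene length, so that only the difference between groups can be read from it.

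**Figure D3:**
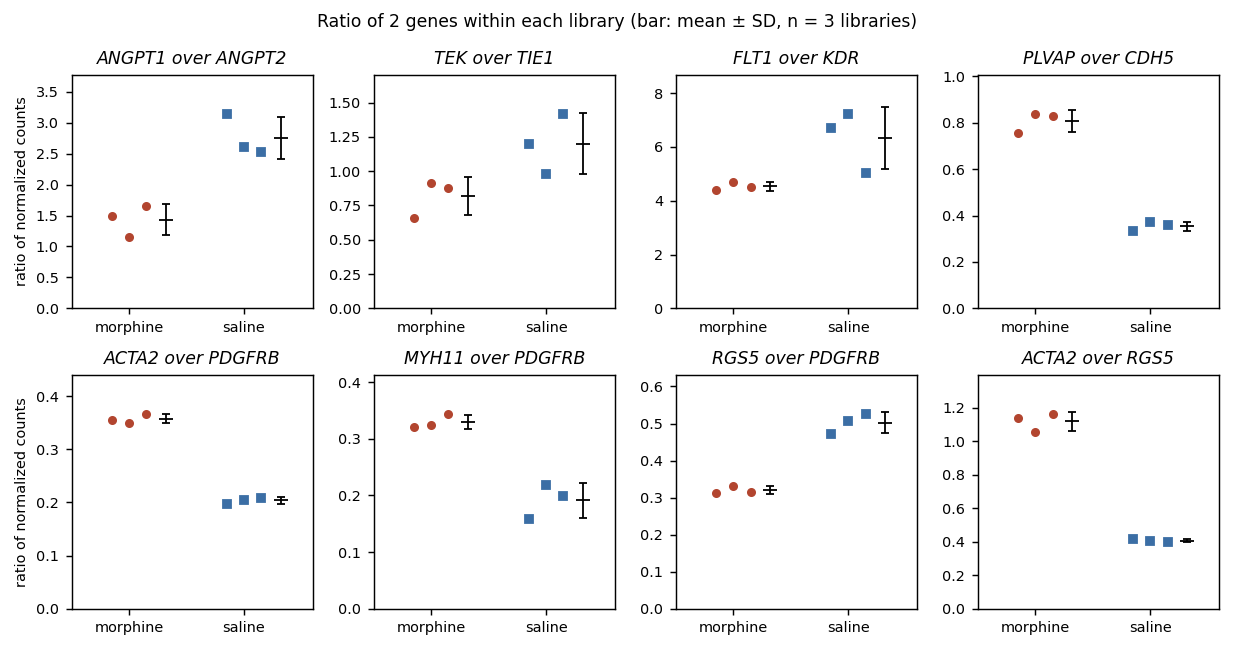
Ratio of the normalized counts of 2 genes within each library (y axis, from 0) for 8 pairs, in the 3 morphine libraries (red circles) and the 3 saline libraries (blue squares), with the mean ± SD of each group (n = 3 libraries). The pairs were chosen after the values had been seen, so it is no test that the groups are apart in all 8, and no share over other pairs was computed. Among these pairs the ratio of group means is largest for ACTA2 over RGS5, with means of 1.12 ± 0.0579 in morphine libraries, against 0.407 ± 0.011 in saline libraries.

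Further genes of the same pathways, from lists that hold none of the members, moved in both directions. Of 35 other genes of vascular signalling tested, 6 rose and 9 fell (42.9% called). Of all genes tested 12.9% rose and 15.0% fell (27.9% called). S1PR1, a receptor of sphingosine-1-phosphate, had 3841, 3603 and 3829 normalized counts in morphine libraries, against 5965, 5971 and 5833 in saline libraries, and fell by 0.66 (limma adjusted p = 0.00276). HIF1A, the oxygen-regulated transcription factor, fell by 0.65 and ETS1, an ETS factor of endothelium and blood cells, by 0.71, whereas TGFBR3, a co-receptor of the TGF-beta family, rose by 0.75. All 4 of these calls passed in the 6 fits without 1 library, and the whole list had 1 to 6 rises and 3 to 6 falls in those fits.

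Of 29 other barrier genes tested, 3 rose and 8 fell (37.9% called, beside 27.9% of all genes tested). Without 1 library 1 or 2 rose and 3 to 5 fell. ABCG2, an efflux pump of barrier endothelium, had 1249.8, 1012 and 1232 normalized counts in morphine libraries, against 2261, 2312 and 2151 in saline libraries, and fell by 0.95 (limma adjusted p = 0.00447). LEF1, a transcription factor of the Wnt pathway that induces the barrier, fell by 0.61 and the transferrin receptor gene TFRC, which other cells also express, by 0.46. SLC16A1, a carrier of lactate and ketone bodies, rose by 0.42. ABCG2, LEF1, TFRC and SLC16A1 passed in all 6 fits without 1 library.

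Of 16 other contractile genes tested, 3 rose and 3 fell (37.5% called, beside 27.9% of all genes tested). The log2 fold change was positive in 8 and negative in 8. These counts depended on the fit: 6 rose and 3 fell in DESeq2 and in the authors' deposited comparison, and 5 and 3 in edgeR. Whether the list differs from the members of the contractile set was not tested. PDE5A, a phosphodiesterase of cyclic GMP in smooth muscle, fell by 0.67 and CALD1, the actin-binding protein caldesmon, by 0.45, while FLNA, a filamin, rose by 0.25 and TPM1, a tropomyosin, by 0.23. PDE5A passed in all 6 fits without 1 library. The calls of CALD1 (limma adjusted p between 0.0409 and 0.0872), FLNA (limma adjusted p between 0.0487 and 0.08) and TPM1 (limma adjusted p between 0.0587 and 0.0949) were lost in 4 or more of them, and the list had 0 to 2 rises and 1 or 2 falls in them.

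Of 14 basement membrane genes 1 rose and 2 fell (21.4% called, beside 27.9% of all genes tested). ITGB1, the integrin beta chain shared by many matrix receptors, fell by 0.46 (limma adjusted p = 0.00425), FN1, fibronectin, fell by 0.21 and AGRN, the proteoglycan agrin, rose by 0.17. ITGB1 passed in all 6 fits without 1 library, and FN1 and AGRN in 0 of them (limma adjusted p between 0.053 and 0.105 in FN1 and 0.0949 and 0.121 in AGRN). The collagen genes COL4A1 and COL4A2, whose products form the vessel basement membrane, had log2 fold changes of 0.10 and -0.14 and did not pass.

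**Figure D4:**
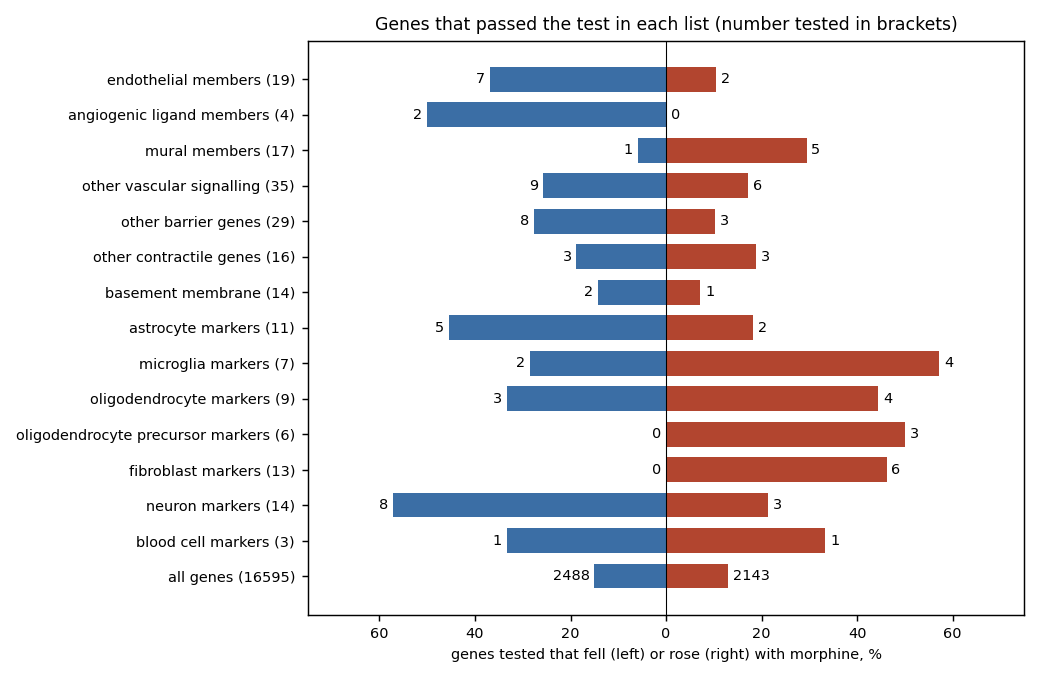
Share of the genes tested that fell (left, blue) or rose (right, red) with morphine at a limma adjusted p under 0.05 (x axis, %), for each list and for all genes, with the number of genes at the end of each bar and the number tested in brackets. Of the endothelial members 7 fell and 2 rose. Of the mural members 5 rose (CNN1, ACTA2, MYH11, TAGLN and CSPG4) and 1 fell, while the log2 fold change was positive in 8 and negative in 9. Without 1 library 2 or 3 mural members rose and 1 or 2 fell. Every list apart from all genes is too short for its shares to be precise.

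Markers of the other brain cell types also moved with the group in these libraries, and their part in the endothelial results was not tested. Over all genes tested, 12.9% rose and 15.0% fell. Of 7 microglia markers 4 rose and 2 fell, with summed levels of 7758 to 8315 normalized counts in morphine libraries, against 5342 to 5681 in saline libraries. Of 14 neuron markers 3 rose and 8 fell, and of 9 oligodendrocyte markers 4 rose and 3 fell, with summed levels of 268272 to 270747 in morphine libraries, against 261890.00 to 266324 in saline libraries. Of the 3 blood cell markers tested 1 rose and 1 fell, with summed levels of 71.1 to 76.3 normalized counts in morphine libraries, against 60.1 to 108 in saline libraries over the 5 with a row. No marker with a row in these lists was at 0 in all libraries. In the fits without 1 library 0 or 1 neuron markers rose and 7 or 8 fell, and 2 or 3 oligodendrocyte markers rose and 0 to 2 fell.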

How the data were processed

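The authors deposited a table of normalized counts, a signal in which the reads of a library are divided by its size factor, as its headers and values show. The deposited table also holds the authors' log2 fold changes, p-values and test statistic, a score. The tools that the submitters' processing notes list are DESeq2 1.18.1, StringTie and Bowtie2 2.1.0, and the build is hg19, with no step given for any of them, while the identifiers are those of rhesus genes, so no coordinates are given. The counter and its use of strand are not given in the sources used here. All values of each library were whole multiples (within 0.001) of its smallest, 100% in each, so reads were recovered, and DESeq2 called 6105 and edgeR 5636 genes on them.

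Of 23191 identifiers, 15436 were paired with a symbol through a name table. Genes were tested on log2(value + 1) with limma 3.58.1 (R 4.3.3), two-sided, with group as the only term, over the 16595 genes with a mean of at least 10, adjusted by Benjamini-Hochberg over all of them; fold changes on this scale understate those of low genes. Confidence intervals are limma's, at 95% and not adjusted. Alternatives were TMM and upper-quartile scaling, no filter or a minimum mean of 50, pseudocounts of 0.5 and 5, a replicate block, each library left out, an intensity trend, DESeq2 1.42.0, edgeR 4.0.16 and the authors' comparison. The tests were tested on simulated data. Over genes with at least 50 summed reads, libraries of a group differed by more than sampling noise (mean chi-square 17.5 to 23.8 per pair, where noise gives about 1). Members called were given by library, as were main markers not called, with up to 4 genes of each other list; the members, lists and this rule were chosen with earlier results of these data known. Sequences were not used here. Figures were drawn with matplotlib 3.10.9.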

Additional observations from a re-analysis of the deposited data

How the results depend on the processing

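No member changed direction past the threshold under any of the 17 alternatives. Of the 17 members called, 10 were called in all 6 fits without 1 library and 7 under all alternatives that gave a value, and 5 of the 23 others were called under some alternative. All genes called numbered 4631, 2536 to 3181 without 1 library, 2993 with no filter and 1577 with the replicate block. Endothelial rises numbered 2, and 1 or 2 without 1 library. The fit with 2 was the one without morphine library 3, where PLVAP and SLC2A1 rose and ENG did not pass. Endothelial rises numbered 1 with TMM scaling, no filter or the replicate block. Endothelial falls numbered 7, 5 or 6 without 1 library and 2 with the replicate block. Mural rises numbered 5, 2 or 3 without 1 library, and 3 with no filter or the replicate block; mural falls numbered 1, 1 or 2 without 1 library, and 2 with a minimum mean of 50, a pseudocount of 5, the intensity trend, DESeq2, edgeR or the authors' deposited comparison, where ITGA1 was added. The fits without 1 library have fewer samples, and the other causes were not tested. Over all genes, same-numbered libraries did not deviate together from their group means (correlations -0.0563, -0.00392 and -0.0284). What the replicate number marks is not given, and correlations over all genes cannot show whether it pairs the libraries for some of them. The median log2 fold change of all genes was 0.01 in the fit reported and 0.03 with upper-quartile scaling. What limits low members such as CNN1, ITGA1 and ANPEP, depth or the spread between libraries, was not tested.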

Other observations

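The step seen in SLC2A1, where 1 library stood apart from close values in the rest of its group, was also found in other genes, which were singled out after their values had been seen. NDRG2, an astrocyte gene, had 88706, 90879 and 41925 normalized counts in morphine libraries, against 102283, 43604 and 44270.2 in saline libraries. VCL, the adhesion protein vinculin, had 329, 1647 and 1629 normalized counts in morphine libraries, against 1729.7, 1834 and 1775 in saline libraries, and SRF, a transcription factor that drives contractile genes, had 2978, 1479 and 1446 in morphine libraries, against 1364, 1591 and 1412 in saline libraries. Over the 8829 genes with a mean of at least 500 normalized counts there were 234 cases in which 1 library was at least 1.8 times above or below the others of its group while those lay within 1.2 times of each other, with 43, 30 and 41 of them in morphine libraries 1, 2 and 3, against 47, 34 and 39 in saline libraries 1, 2 and 3. These limits were set after the data had been seen. Every library had such cases.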
